A study of Mus musculus with 8 samples.

Results

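The genes described here are 36 mouse genes of glucose use: the glucose transporters GLUT1 and GLUT3, the enzymes of glycolysis, the lactate dehydrogenases and lactate transporters, the pyruvate dehydrogenase complex with its kinases, and the pentose phosphate pathway. They were picked by symbol from the pathway's known members, by a rule that uses no measured value though results of these data were already known, and all 36 were found among the 55471 genes of the count table. Each symbol was compared step by step along the pathway between SV-LECs cultured without added cytokine and SV-LECs given TGFβ1.

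Glycolysis splits glucose into pyruvate in the cytosol and yields ATP and NADH. Pyruvate is then either reduced to lactate and exported, or carried into mitochondria and turned into acetyl-CoA by the pyruvate dehydrogenase complex, which the PDH kinases switch off by phosphorylation. The pentose phosphate pathway branches off at glucose-6-phosphate: its oxidative arm makes NADPH, and its non-oxidative arm exchanges sugars with glycolysis to make ribose for nucleotides. Endothelial cells are known for drawing most of their ATP from glycolysis, and many glycolytic genes are targets of the hypoxia-inducible factor HIF1 and of MYC.

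SV-LECs are a mouse lymphatic endothelial line obtained by SV40 immortalization, so each group is a single cultured line and not primary cells. The untreated group has 4 libraries. The treated group has 4 libraries of cells exposed to TGFβ1 at 10 ng/ml over 72 h. The samples are technical replicates by the study's Methods, so every error, FDR and interval given here covers the spread between such samples and not that between independent experiments. The libraries held 18952504 to 26386941 counted reads on genes, and the libraries within a group differed from each other by more than sampling noise.

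The labelled cell type was checked against markers. Of 12 lymphatic endothelial markers, 5 had enough reads to be tested, of which 3 rose and 1 fell (median log2 fold change 0.41). The list summed to 425 to 460 CPM without and 449 to 462 CPM with TGFβ1, most of it from Pdpn (342 and 313 CPM on average). Tie1 and Ccl21a had no read in any library, and Prox1, the master regulator of lymphatic identity, had none in the untreated libraries and 0.0711 CPM on average after TGFβ1. Lyve1, Pecam1, Cdh5 and Reln averaged under the level of 3 reads, apart from Pecam1 after TGFβ1 (0.168 CPM). The cells are therefore called here by the name of the line. Of 6 fibroblast and mural markers, 4 were tested, and they summed to 3205 to 4540 CPM untreated and 5533 to 6663 CPM treated, mainly Col1a1. Col1a1 and Pdgfrb rose, by 0.81 and 0.63, while Dcn fell by 1.91 (312 to 83.0 CPM) and Pdgfra by 1.47 (160.03 to 57.8 CPM). The leukocyte genes Ptprc, Adgre1 and Cd3e were at or near 0, and Cd68 was the 1 leukocyte marker tested (6.96 and 15.9 CPM). Of 5 epithelial markers 3 were tested, and the list summed to 5.53 to 9.35 CPM untreated and 8.03 to 10.01 CPM treated. The treatment itself could be seen in the TGFβ response genes Acta2 and Ccn2, which were higher by 1.89 and 2.06 on the log2 scale. All 6 cell cycle genes examined were lower, from Mcm2 (log2 fold change -0.38) to Mki67 (-1.84), and their summed level went from 1988 to 2082 CPM down to 866 to 917 CPM. The part of this cell cycle difference in the values below was not tested.

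Levels are given as CPM, read counts relative to a library size scaled by the TMM method, and differences as log2 fold changes of TGFβ1-treated over untreated cells with their standard error (SE). Genes were tested with edgeR's likelihood ratio test and called at a false discovery rate (FDR, Benjamini-Hochberg) under 0.05, taken over all 13818 genes that passed the filter on low counts. Because small differences pass this test easily with technical replicates, edgeR's glmTreat was run as well, which asks whether a change exceeds 1.5-fold. All 36 genes passed the filter, the lowest count of any of them in a library being 17, for Aldoc.

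In TGFβ1-treated SV-LECs, glucose metabolism genes were mostly lower. Of the 36 genes, 25 fell, 7 rose and 4 did not pass the test (Slc2a1, Pfkm, Pgam1 and G6pdx). Over all genes tested, 38.0% fell and 37.6% rose. The median log2 fold change was -0.35 for the 36 genes and -0.01 for all genes. In glmTreat, 12 of the 36 fell by more than 1.5-fold and 2 rose by more than 1.5-fold, where 10.6% and 14.5% of all genes did. In the same 25 and 7 genes the libraries of the groups did not overlap, against 35.1% of all genes with every treated library below and 34.7% with every treated library above. Added over the 36 genes, they gave 7086 to 7533 CPM in untreated and 5339 to 5826 CPM in treated cells. No test was made over the genes as a group. Fewer cells that express a gene and less of its RNA per cell cannot be told apart in RNA of whole cultures.

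**Figure D1:**
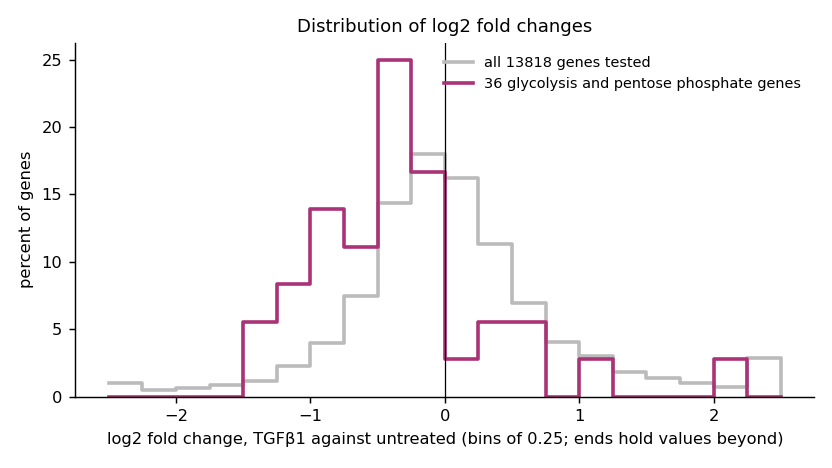
Percent of genes (vertical axis) by log2 fold change of TGFβ1-treated over untreated SV-LECs (horizontal axis, bins of 0.25), for all 13818 genes tested (grey) and the 36 glucose metabolism genes (purple). The 36 genes are shifted to the left, with a median of -0.35 against -0.01 for all genes.

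**Figure D2:**
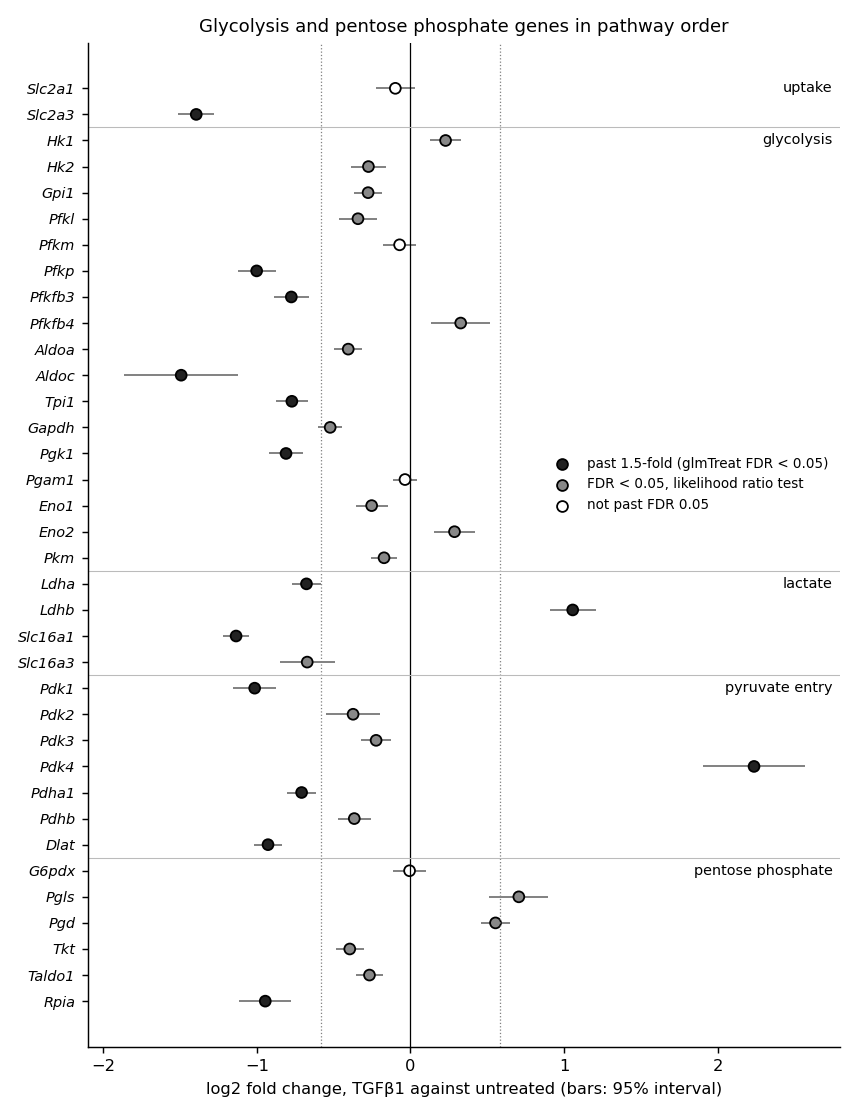
Log2 fold change of each of the 36 genes in pathway order, with 95% intervals from the SE, dotted lines at 1.5-fold, and fill by test. The 12 black points on the left and the 2 on the right (Ldhb and Pdk4) are the genes past 1.5-fold, and the 4 white points are the genes that did not pass the test.

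Of the 12 genes that fell by more than 1.5-fold, 11 have an entry among RefSeq promoter sequences on GRCm38.p6, as do 35 of the 36 genes (Slc2a3 has none here). The 250 bases before each annotated start were searched on both strands for ACGTG, the core of the HIF binding site in its commoner form. CACGTG, the E-box bound by MYC and by the glucose sensor MondoA, contains ACGTG on both strands and so counts as 2 overlapping matches. ACGTG was found before at least 1 start of 14 of the 35 genes (40.0%), in 11 of 24 that fell and in none of 7 that rose. The rest were Slc2a1, Pfkm and Pgam1, which did not pass the test, while G6pdx, which did not pass either, lacked it. Among the 11 genes that fell by more than 1.5-fold, 36.4% held it. Among all 27025 genes with promoter sequences, 18.5% held it, and among the 10265 genes that were both tested and matched to a window 25.1% did. Of single windows, 16.6% of all 32851 and 34.0% of the 50 before these 35 genes held it. The windows of these genes also hold more CG dinucleotides, with a median of 14.5 against 6 over all 32851 windows. CG was not counted for the tested genes alone, and its part in the share of matches was not tested. CACGTG stood before 5 of the 35 genes (14.3%), 6.86% of all genes and 9.86% of the tested genes. TGACNNNGC, the core of the NRF2 element, stood before 4 of 35 (11.4%), 11.5% of all and 13.9% of the tested genes. A match describes the letters only. Among the 11 genes, Pfkfb3, Pgk1, Ldha and Slc16a1 held ACGTG, and for the latter 3 the window contains no annotated exon base. These 3 windows are printed to show where the core lies in genes that fell, 5′ to 3′ on the gene's own strand and ending at the base before the start, with matches to ACGTG or its reverse complement in capitals.

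Pgk1 (chrX:106186850-106187099, plus strand): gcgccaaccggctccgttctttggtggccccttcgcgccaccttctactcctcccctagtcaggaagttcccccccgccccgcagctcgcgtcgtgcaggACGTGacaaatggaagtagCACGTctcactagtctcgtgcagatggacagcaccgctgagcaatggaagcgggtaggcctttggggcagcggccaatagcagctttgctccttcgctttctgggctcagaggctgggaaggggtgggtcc
Ldha (chr7:46845554-46845803, plus strand): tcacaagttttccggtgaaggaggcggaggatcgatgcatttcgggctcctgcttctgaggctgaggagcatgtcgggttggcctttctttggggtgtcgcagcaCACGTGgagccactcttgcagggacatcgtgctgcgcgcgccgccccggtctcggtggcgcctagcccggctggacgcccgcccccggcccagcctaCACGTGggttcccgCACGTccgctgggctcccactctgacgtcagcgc
Slc16a1 (chr3:104638414-104638663, plus strand): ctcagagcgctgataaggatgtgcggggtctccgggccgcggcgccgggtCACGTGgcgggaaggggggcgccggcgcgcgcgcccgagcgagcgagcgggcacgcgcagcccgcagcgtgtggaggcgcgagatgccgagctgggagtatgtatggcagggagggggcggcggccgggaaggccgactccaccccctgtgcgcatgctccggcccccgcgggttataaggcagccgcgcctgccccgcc

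The Ldha window holds 5 matches, which begin 145, 144, 48, 47 and 34 bases before the start and include 2 CACGTG. In the Pgk1 window the 2 matches begin 150 and 131 bases before the start, and in the Slc16a1 window a single CACGTG gives both, 200 and 199 bases before it.

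At glucose uptake the 2 transporters differed. Slc2a3, which encodes the high-affinity transporter GLUT3 (ENSMUSG00000003153, chr6:122727809-122801640), stood at 53.1, 56.4, 57.5 and 55.0 CPM in the untreated libraries and at 22.7, 19.6, 20.6 and 21.6 CPM after TGFβ1. Every treated library was below every untreated one, a 2.63-fold fall (log2 fold change -1.39, SE 0.06, FDR 4.67e-124 from edgeR's likelihood ratio test). Slc2a1, the gene of the widely expressed GLUT1, was at 95.7 ± 8.16 CPM untreated and 89.5 ± 5.75 CPM treated (SD, n = 4). Its groups overlapped, and the 95% interval of the log2 fold change was -0.23 to 0.03. With the libraries scaled by total counts alone, which puts the median of all genes at -0.07, it was called lower, at -0.17 (FDR 0.0157). Per kilobase of exon, GLUT1 made up 78.0% ± 1.80 of the pair in untreated and 89.7% ± 0.389 in treated cells.

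Hexokinase traps glucose as glucose-6-phosphate. Hk1, the housekeeping isozyme, was at 91.0, 90.2, 84.5 and 80.4 CPM untreated and at 103, 96.8, 104 and 102 CPM after TGFβ1, with all treated libraries above. It rose by 0.23 on the log2 scale (SE 0.05, FDR 1.29e-05), while Hk2, the inducible isozyme, fell by 0.27 (SE 0.06, FDR 7.71e-06). Both changes were below 1.5-fold. Phosphoglucose isomerase, encoded by Gpi1, is the next enzyme. Its gene was at 441, 456, 414 and 443 CPM untreated and 374, 372, 363 and 339 CPM treated, a log2 fold change of -0.28 (SE 0.05).

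Phosphofructokinase commits sugar to glycolysis, and its platelet-type subunit gene changed most of the 3 subunit genes. Pfkp (ENSMUSG00000021196, chr13:6579768-6648777) was at 95.2, 100.5, 88.3 and 86.8 CPM in untreated libraries and at 50.2, 46.1, 46.5 and 42.8 CPM in treated ones. This was a 2.00-fold fall, with a 95% interval of the log2 fold change of -1.12 to -0.88 (FDR 1.97e-55). The liver-type subunit Pfkl fell by 0.34 (SE 0.06), and the muscle-type subunit Pfkm did not pass the test (-0.07, 95% interval -0.18 to 0.04), though it did with total counts alone (-0.14, FDR 0.0148). Of the 75-base stretches of Pfkp, 4.87% lie opposite Pitrm1, which was at 152 and 156 CPM, and whether reads were counted by strand is not given in the sources used here.

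The bifunctional PFKFB enzymes set the level of fructose-2,6-bisphosphate, the main activator of phosphofructokinase. Pfkfb3, whose product strongly favours its synthesis (ENSMUSG00000026773, chr2:11471433-11554077), was at 57.3, 61.0, 55.5 and 55.5 CPM untreated and at 36.3, 32.6, 33.8 and 31.7 CPM after TGFβ1. The groups were well apart, and the fall was 1.71-fold (log2 fold change -0.78, SE 0.06, glmTreat FDR 0.000545 in edgeR). Pfkfb4, which is far less abundant, rose by 0.33 (SE 0.10, FDR 0.00141) from 6.51 ± 0.235 to 8.17 ± 0.529 CPM (SD, n = 4), and its share of the pair per kilobase went from 15.0% to 27.4%.

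The enzymes from aldolase to phosphoglycerate kinase carry the split of the sugar and the first ATP-yielding step, and the genes of all of them fell. Tpi1, the gene of triose phosphate isomerase (ENSMUSG00000023456, chr6:124810586-124814296), was at 787, 817, 739.9 and 739.6 CPM untreated and 488, 434, 459.5 and 425 CPM treated. This amounted to 1.71-fold (log2 fold change -0.77, SE 0.05, FDR 9.82e-48). Pgk1, the gene of phosphoglycerate kinase (ENSMUSG00000062070, chrX:106187100-106203699), was at 218, 227, 203 and 222 CPM untreated and 136, 127, 119 and 115 CPM treated. It fell 1.75-fold (log2 fold change -0.81, SE 0.06, FDR 2.01e-46). The main aldolase gene, Aldoa, fell from 629 ± 25.8 to 475 ± 23.4 CPM (SD, n = 4), a log2 fold change of -0.40 (SE 0.05).

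Aldoc, the brain-type aldolase, is a minor isozyme here (ENSMUSG00000017390, chr11:78322968-78327781). It was at 2.55, 3.00, 2.53 and 2.74 CPM untreated and at 0.920, 0.974, 0.935 and 1.01 CPM treated, and all treated libraries were below. It had the lowest log2 fold change of the 36 genes (-1.49, SE 0.19, FDR 1.18e-16), but with few reads its 95% interval of -1.86 to -1.12 takes in the estimate for Slc2a3. It gave under 0.4% of the aldolase sum per kilobase in both groups.

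Gapdh, the gene of glyceraldehyde-3-phosphate dehydrogenase and a common reference gene in quantitative PCR, was at 484, 506, 483 and 488 CPM untreated and 359, 331, 342 and 332 CPM treated. All treated libraries were lower, by 1.44-fold (log2 fold change -0.52, SE 0.04, FDR 1.13e-36). Over all the alternative settings its log2 fold change lay between -0.59 and -0.51. Gapdh shares 22.6% of its 75-base stretches with 118 other annotated genes, most of them pseudogenes, so its counts may hold only some of its reads. Among them, the pseudogene with a sizeable count, Gm13394, also fell, from 230 to 152 CPM.

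In lower glycolysis the differences were small. Pgam1, phosphoglycerate mutase, stood at 110.1, 110.3, 111 and 116 CPM untreated and 110.1, 111, 109 and 107 CPM treated. The groups overlapped, and the 95% interval of the log2 fold change was -0.12 to 0.05. With total counts alone it was called lower, at -0.10 (FDR 0.0195). Eno1, the ubiquitous enolase, was at 278, 273, 286 and 315 CPM untreated and 258, 238, 242 and 229 CPM treated, and it fell by 0.25 (SE 0.05). Eno2, the neuronal enolase, rose by 0.29 (SE 0.07, FDR 4.35e-05). Its share of the sum of Eno1 and Eno2 per kilobase went from 23.6% ± 2.08 to 31.0% ± 1.37. This sum leaves out Eno3, which went from 11.7 to 8.26 CPM per kilobase, while Eno2 went from 16.5 to 20.2.

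Pkm, the gene of the muscle-type pyruvate kinases, had the highest CPM of the 36 genes. It was at 1292, 1315, 1231 and 1300.5 CPM untreated and 1216, 1122, 1119 and 1106 CPM treated, with the first treated library close to the lowest untreated one. The fall was 0.17 on the log2 scale (SE 0.04, FDR 0.000135). The 2 splice forms, PKM1 and PKM2, have a single count in this table and were not told apart. Stretches shared with other annotated genes on the same strand made up 52.8% of Pgk1, 34.9% of Pgam1, 23.0% of Eno1 and 17.8% of Pkm. Adding the counts of Eno1b and of pseudogenes with at least 1% of a gene's stretches changed none of the calls. For Pgk1, Pgam1 and Eno1 it could hardly have done so, as their copies held few reads. Over all libraries, Pgk1-rs7 had 2 counts and Pgam1-ps2 had 91, beside 30077 for Pgk1 and 19363 for Pgam1. Whether shared reads were left out of the counts cannot be seen from this sum. Gm49759, a row inside the Pkm gene that shares 10.6% of its stretches, was not among the copies added.

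**Figure D3:**
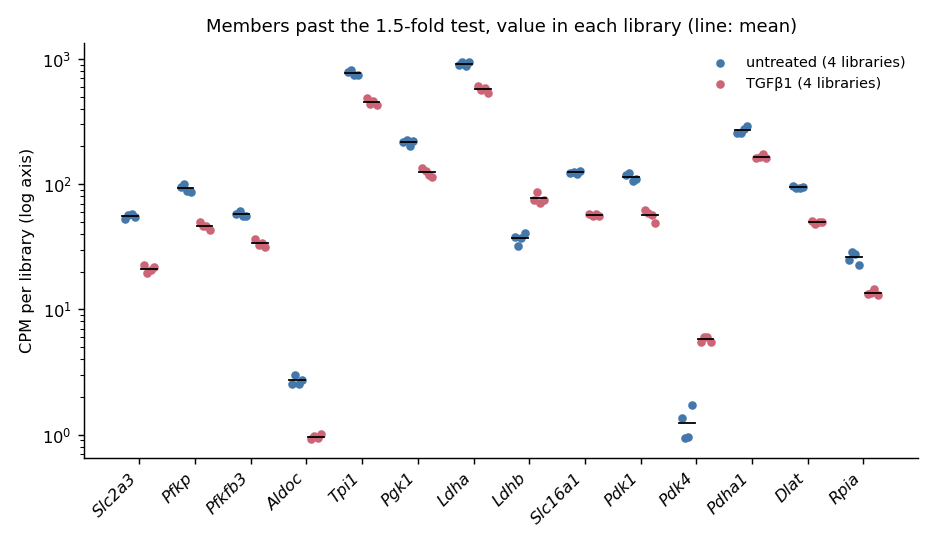
CPM in each library (points, log axis) of the 14 genes past the 1.5-fold test, for 4 untreated (blue) and 4 TGFβ1-treated (red) libraries, with a line at each mean. In all 14 the 2 groups are apart: Ldhb and Pdk4 are higher after TGFβ1 and the other 12 lower.

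The lactate branch held opposite changes in the 2 lactate dehydrogenase genes. Ldha, whose subunit favours lactate formation (ENSMUSG00000063229, chr7:46841475-46855627), was at 893, 952, 875 and 942 CPM untreated and 606, 565, 582 and 538 CPM treated. It fell 1.60-fold (log2 fold change -0.68, SE 0.05, FDR 3.42e-45). The change lies close to 1.5-fold, and its glmTreat FDR in edgeR, 0.0276, rose above the threshold when 1 of 4 different libraries was left out, to between 0.0575 and 0.117 (untreated 2 or 4, treated 2 or 4). It also did so with the replicate block (0.0565), with the 1 CPM filter (0.0583) and in DESeq2 (0.279).

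Ldhb, whose subunit favours the use of lactate (ENSMUSG00000030246, chr6:142490249-142507957), was at 37.8, 32.3, 37.1 and 40.6 CPM untreated and 74.7, 87.0, 71.3 and 74.2 CPM treated. Every treated library was above every untreated one, a 2.08-fold rise (log2 fold change 1.06, SE 0.08, FDR 1.25e-41). Per kilobase, Ldhb went from 7.86% ± 0.787 to 22.0% ± 1.88 of the lactate dehydrogenase sum (SD, n = 4). Ldha still made up most of that sum. Ldhb shares 12.6% of its stretches with the pseudogene Gm5514, which rose from 2.64 to 5.68 CPM.

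The genes of both lactate transporters fell. Slc16a1, which encodes MCT1 (ENSMUSG00000032902, chr3:104638668-104658462), was at 124, 126, 119 and 127 CPM untreated and 57.4, 55.9, 57.3 and 55.2 CPM treated. The groups were far apart against their spread, and the fall had the smallest FDR of the 36 genes (log2 fold change -1.14, SE 0.04, FDR 6.52e-142). Slc16a3, the gene of the exporter MCT4, fell from 53.7 ± 5.96 to 33.8 ± 4.09 CPM (SD, n = 4; log2 fold change -0.67, SE 0.09). In glmTreat its FDR was 0.207, which turned to 0.0456 without the first treated library and to 0.0480 with total counts alone.

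At the entry of pyruvate into mitochondria, the gene of 1 PDH kinase rose while those of the other 3 fell. Pdk4, the kinase known to respond to fasting and fatty acids (ENSMUSG00000019577, chr6:5483351-5496309), was at 1.35, 0.939, 0.961 and 1.72 CPM untreated and 5.52, 5.99, 6.05 and 5.47 CPM treated. Its 4.72-fold rise was the largest change of the 36 genes (log2 fold change 2.24, SE 0.17, FDR 3.54e-46), from a low level. Pdk1, a HIF1 target (ENSMUSG00000006494, chr2:71873224-71903858), was at 119, 123, 105 and 111 CPM untreated and 62.3, 58.6, 56.9 and 49.3 CPM treated, a 2.02-fold fall (log2 fold change -1.01, SE 0.07). Pdk2 and Pdk3 fell by 0.37 and 0.22. Per kilobase, Pdk1 went from 32.9% to 21.4% of the kinase sum, Pdk3 from 56.9% to 64.1% and Pdk4 from 0.789% to 4.83%. Without division by length Pdk1 had the largest mean share, 58.9% and then 44.1%, against 33.6% and 43.4% for Pdk3.

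All 3 subunit genes of the pyruvate dehydrogenase complex in the list fell. Dlat, the E2 acetyltransferase (ENSMUSG00000000168, chr9:50634633-50659780), was at 97.4, 92.4, 92.7 and 94.3 CPM untreated and 50.4, 47.8, 49.8 and 50.1 CPM treated, a 1.90-fold fall (log2 fold change -0.93, SE 0.05, FDR 1.32e-89). Pdha1, the E1α subunit that the kinases phosphorylate (ENSMUSG00000031299, chrX:160122209-160138413), was at 258, 256, 276 and 290.4 CPM untreated and 163, 165, 172 and 161 CPM treated. It fell 1.63-fold (log2 fold change -0.71, SE 0.05), and DESeq2's test against 1.5-fold gave it an adjusted p of 0.0891. Of its stretches, 10.6% lie opposite Map3k15, which was at 14.3 and 12.6 CPM. Pdhb, the E1β subunit, fell by 0.37 (SE 0.05).

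Among the 3 oxidative pentose phosphate genes of the 36, 2 rose and none fell. H6pd, whose product acts in the oxidative arm within the endoplasmic reticulum and which is not among the 36, fell by 0.27 (185.9 to 153.8 CPM). Pgd, 6-phosphogluconate dehydrogenase and the second NADPH-yielding step, was at 62.1, 60.7, 68.3 and 63.9 CPM untreated and 95.8, 93.6, 91.5 and 93.3 CPM treated, with no overlap. It rose 1.47-fold (log2 fold change 0.55, SE 0.05, FDR 4.64e-29). G6pdx, the gene of the first and rate-limiting enzyme, was at 51.0 ± 2.40 and 50.8 ± 2.54 CPM (SD, n = 4), and the interval of its log2 fold change was -0.12 to 0.10.

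Pgls, the lactonase between them, rose by 0.71 (SE 0.10, FDR 2.67e-12), from 44.3 ± 5.15 to 72.3 ± 10.2 CPM. It shares 18.1% of its stretches with the overlapping gene Fam129c on the same strand, which rose from 4.35 to 8.30 CPM. Its glmTreat FDR of 0.129 turned to 0.0384 without the first untreated library and to 0.0412 without the first treated one.

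The 3 non-oxidative genes among the 36 fell. Rpe, the epimerase of the same arm and not among them, rose by 0.21 (69.1 to 79.6 CPM), and no difference between the arms was tested. Rpia, ribose-5-phosphate isomerase (ENSMUSG00000053604, chr6:70765720-70792232), was at 24.9, 28.9, 27.6 and 22.7 CPM untreated and 13.3, 13.5, 14.5 and 13.0 CPM treated, a 1.93-fold fall (log2 fold change -0.94, SE 0.09, FDR 1.26e-27). Tkt, transketolase, fell by 0.39 (SE 0.05) and Taldo1, transaldolase, by 0.27 (SE 0.05), and both remained within 1.5-fold.

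Across families with several isozymes in the glucose metabolism gene list, the make-up of their summed transcripts shifted. These shares are descriptions and were not tested. Isozymes outside that list were left out of the sums, some of them at similar levels. Slc2a9 went from 1.06 to 8.88 CPM per kilobase, while Slc2a3 went from 7.66 to 2.92. Pfkfb1 went from 1.56 to 1.36 and Pfkfb2 from 1.10 to 1.65, while Pfkfb4 went from 1.33 to 1.68. Hk1 went from 66.9% ± 0.549 to 74.1% ± 1.16 of the hexokinase sum per kilobase. Among phosphofructokinase subunits Pfkl made up 56.9% and 55.7%, Pfkm went from 31.5% to 37.2% and Pfkp from 11.6% to 7.17%. MCT4 went from 26.5% ± 2.23 to 33.2% ± 2.32 of the monocarboxylate transporter sum. By group means, the isozyme with the largest share in untreated cells kept it after TGFβ1 in all 9 families, on either scale. Without division by length the lead of Pdk1 over Pdk3 in treated cells was narrow (44.1% against 43.4%). In the treated library of replicate 4, Pdk3 was the higher of the pair (55.0 against 49.3 CPM).

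**Figure D4:**
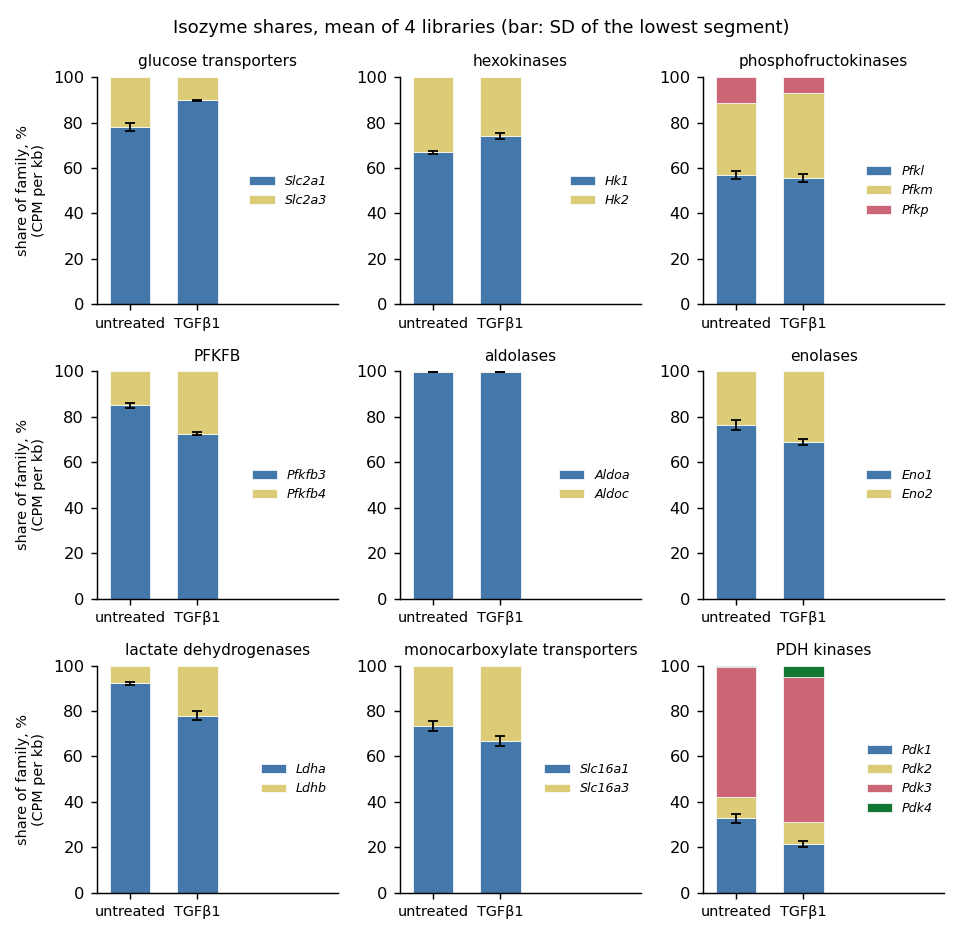
Share of each isozyme in its family, in percent of the summed CPM per kilobase of exon. Bars are the mean of 4 untreated and 4 TGFβ1-treated libraries, with the SD of the lowest segment. Only the isozymes shown were summed, and others of the same family were left out. The Slc2a1 segment grows from 78.0% to 89.7%, the Ldhb segment from 7.86% to 22.0% and the Pdk4 segment from 0.789% to 4.83%.

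Other genes of the same pathways, 53 in a list of isozymes, transporters and neighbouring enzymes, were compared with these 36. Of them 36 were tested, 11 rose (30.6%) and 15 fell (41.7%), with a median log2 fold change of -0.03. Among all genes 37.6% rose and 38.0% fell. Among those that averaged above 1 CPM over all 8 libraries, the steepest rises were in Slc2a9, a urate and sugar transporter (3.07, from 5.39 to 45.1 CPM), Shpk, which phosphorylates sedoheptulose (1.75, 5.76 to 19.4 CPM) and the transporter gene Slc2a6 (1.62, 1.08 to 3.33 CPM). The steepest falls were in Pck2, the mitochondrial phosphoenolpyruvate carboxykinase (-1.05, 290.03 to 139.9 CPM), Mpc1, a subunit of the mitochondrial pyruvate carrier (-0.84, 11.1 to 6.18 CPM) and Gpd1l (-0.63). Below that level, the glucose transporter gene Slc2a12 fell more steeply, from 1.57 to 0.301 CPM (-2.34, SE 0.32, FDR 1.33e-16 in edgeR). Slc2a4, another glucose transporter gene below that level, rose from 0.231 to 0.778 CPM (1.71, SE 0.37, FDR 6.82e-07 in edgeR). The remaining 17 listed genes had too few reads to be tested.

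Of 21 regulators of these pathways tested, 9 were higher and 9 lower (42.9% each), near the 37.6% higher and 38.0% lower among all genes. Epas1, which encodes HIF2α, rose by 1.77 (1.45 to 4.95 CPM), and Esrra, the estrogen-related receptor α gene, by 1.12 (33.5 to 72.7 CPM). Prkaa2, an AMPK subunit gene, and Trp53 rose by 0.57 and 0.51. The largest falls were in Egln3, a HIF prolyl hydroxylase that is itself a HIF target (-1.44, 43.3 to 16.0 CPM), in the MAX partner Mxi1 (-0.89), and in Arrdc4 and Txnip (-0.77 and -0.60), both known as targets of the glucose-sensing factor MondoA. Hif1a and Myc, named because of their textbook role and not by the rule of size, had log2 fold changes of -0.41 (SE 0.04, FDR 7.33e-20) and 0.33 (SE 0.09, FDR 0.000193).

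Of 16 HIF targets outside glycolysis, 8 fell and 4 rose. The falls were steepest in Car9, carbonic anhydrase IX (-3.58, 6.08 to 0.499 CPM), Ndrg1 (-1.57, 157 to 52.8 CPM), Ero1l, an oxidase of protein folding (-1.48, 403 to 145 CPM), and Bnip3, a mitophagy receptor (-1.03, 60.4 to 29.6 CPM). Ddit4, Adm, Bhlhe40 and Kdm3a rose, by 0.92, 0.77, 0.55 and 0.45. Among 12 NRF2 targets, which include genes of glutathione and NADPH metabolism, 7 rose and 3 fell. Osgin1, Hmox1, Nqo1 and Gclc rose, by 1.01, 0.83, 0.38 and 0.30, and Slc7a11, the cystine importer, fell by 1.25, Gclm by 0.58 and Txn1 by 0.13. The medians were -0.16 for the HIF targets and 0.13 for the NRF2 targets. These lists are read here as counts only, beside 38.0% of all genes lower and 37.6% higher.

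**Figure D5:**
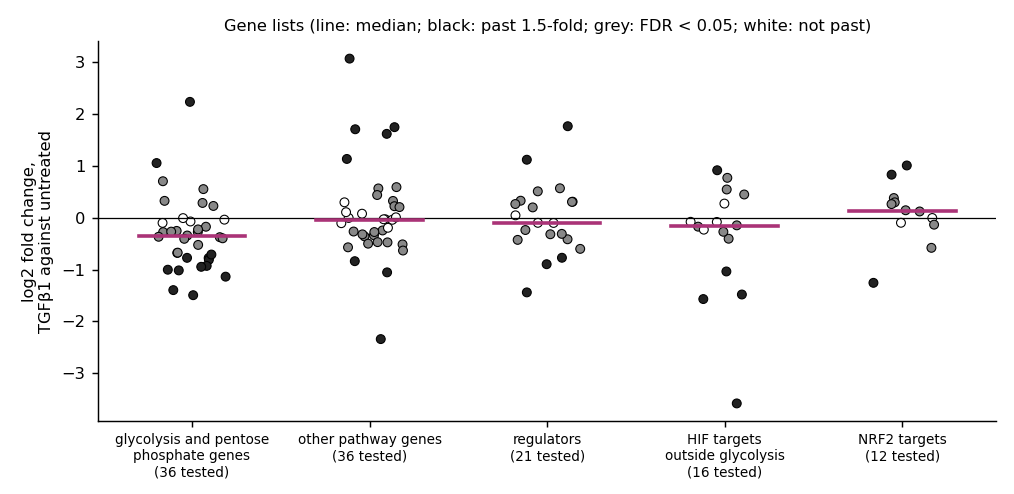
Log2 fold change of each tested gene (points) in the 36 glucose metabolism genes and 4 neighbouring lists, with the median as a line, black points past the 1.5-fold test, grey at FDR under 0.05 and white not past it; the horizontal position within a list carries no value. The line is at -0.35 for the 36 genes, at -0.03, -0.10 and -0.16 for other pathway genes, regulators and HIF targets, and at 0.13 for NRF2 targets.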

How the data were processed

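The authors prepared 8 mRNA libraries from SV-LECs with a stranded kit and sequenced 75 bases of 1 end of each fragment. The submitters' processing notes name bcl2fastq 2.20.0.422, STAR 2.7.3a, featureCounts 1.5.1 and the mouse build GRCm38. The annotation, the strand setting and the treatment of multiply aligned reads are not given in the sources used here. The authors deposited raw counts of reads per gene, whole numbers without normalization. Groups were taken from the sample titles.

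Counts were filtered with filterByExpr, scaled by TMM and fitted in R 4.3.3 with edgeR 4.0.16 (glmFit, glmLRT, and glmTreat at 1.5-fold), with Benjamini-Hochberg FDRs over 13818 genes. The scripts were tested on simulated data. For a repeated symbol the row with the highest total was used. A level of 3 counts is 0.113 to 0.162 CPM, for counting error only. Shares used CPM per kilobase of exon in GENCODE M21, which also gave positions and shared 75-base stretches. The exon length counts every base in any annotated exon of a gene, so it can exceed the length of a single transcript. Only isozymes in the glucose metabolism gene list were summed for a share. The sources used here do not say that replicate numbers pair the samples, so the main fit used no pairing. Correlations of deviations were -0.19 to -0.03 for same-numbered samples and -0.23 to 0.25 for the others. With so few samples these values cannot settle whether the numbers pair them. Alternatives were the quasi-likelihood test, DESeq2 1.42.0, its size factors, total counts, other filters and thresholds, the replicate block, summed copies and each library left out.

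The genes and lists were chosen with earlier results of these data known. Values in every library were given for genes past glmTreat and, where a step had none, for its most abundant gene, and the lists were given as counts with the steepest changes at FDR under 0.05 and above 1 CPM, up to 3 in each direction for other pathway genes and up to 4 for the others.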

Additional observations from a re-analysis of the deposited data

Results flagged for a closer look

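Of 72 groups of 4 libraries examined, 36 genes in each group, 1 held a library far from the other 3 by Dixon's criterion, and chance flags about 1 in 20. Pkm was at 1216 CPM in the first TGFβ1-treated library and between 1106 and 1122 CPM in the other treated libraries.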

How the results depend on the processing

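All 32 called genes kept their direction and an FDR under 0.05 in each of the 17 alternative fits, the largest FDR being 0.0120 for Pfkfb4 with total counts alone. For the same gene it was 0.00289 in the quasi-likelihood test and 0.00506 with the replicate block. With the replicate block 7 genes rose and 25 fell, as without it, and 2 and 11 passed 1.5-fold, so the block changed the glmTreat call of Ldha and no other. The counts of 7 higher and 25 lower genes were also obtained at an FDR of 0.01. With total counts alone 28 were lower. When each library was left out in turn, 7 rose and 25 fell each time, 2 to 3 rose by more than 1.5-fold and 11 to 13 fell by more than 1.5-fold. DESeq2 gave 10 genes lower by more than 1.5-fold. With a threshold of 2-fold in glmTreat, which asks for a larger change, 1 gene was higher (Pdk4) and 3 were lower (Slc2a3, Aldoc and Slc16a1). The log2 fold change of G6pdx, near 0 and never called, changed sign to 0.0025 in DESeq2 and with its size factors, to 0.0084 with the 1 CPM filter, and lay between -0.041 and 0.027 when libraries were left out. Without division by length the share of Pfkl went up by 3.43 percentage points and not down. By its construction that scale weighs Pfkp more, whose annotated exons cover 13401 bases against 6675 for Pfkl. On that scale Pdk1 and not Pdk3 led the PDH kinases by the mean of both groups, narrowly in treated cells, with the directions of their shares as before. Summing annotated copies was chosen after seeing the data for copies under 20% of stretches.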

Other observations

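A row inside the Pkm gene moved against it and was chosen after its values were seen. Gm49759 carries the annotation class TEC, a gene model that awaits experiment, and lies on the same strand (chr9:59672814-59676700), and 19.7% of its 3887 bases lie in annotated Pkm exons. It was at 19.1, 16.5, 14.8 and 19.1 CPM untreated and 68.8, 69.4, 55.1 and 58.0 CPM after TGFβ1, a log2 fold change of 1.86 (SE 0.09, FDR 4.82e-82 in edgeR), whereas Pkm fell by 0.17. Counts per gene cannot say from which transcript these reads came.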
